A study of Saccharomyces cerevisiae with 14 samples.

Results

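The comparison described here is that of fpt1 deletion cells with wild-type cells after 2 h in ethanol. Its members are the 7 ethanol libraries of a series of 14, taken by the genotype and medium in their sample titles: 4 libraries of deletion cells and 3 of wild-type cells. The other 7 libraries are the same strains in glucose. All strains are budding yeast, Saccharomyces cerevisiae, with the BY4741 genotype (MATa his3Δ1 leu2Δ0 met15Δ0 ura3Δ0), a standard laboratory background. The deletion cells also carry fpt1::KanMX, in which a drug resistance cassette stands in the place of FPT1. Deletion replicates 1 to 3 are strain NKI5633 and replicate 4 is strain NKI5620, and the wild type is BY4741 itself. Cultures in the rich glucose medium YEPD reached mid-log phase and were then transferred into ethanol at 30 °C. Messenger RNA was read as stranded poly(A) libraries with 65-base single reads, and the deposited values are FPKM, which scale each gene's reads by its length and by the mapped total of its library.

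RNA polymerase III transcribes the genes of tRNAs, 5S ribosomal RNA and other small RNAs, and Fpt1 is a protein known to sit at these genes. More of it is bound there when cells meet poor conditions. A move from glucose to ethanol stops fermentation, and cells then build mitochondria, run the glyoxylate cycle and gluconeogenesis, and cut the costly production of ribosomes and tRNAs. Poly(A) libraries do not measure the tRNAs themselves, so the values below concern the messenger RNAs of protein-coding genes.

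Loss of FPT1 itself and a lower level of MAG1, a DNA repair gene, were the differences that passed the test over 6267 genes. MAG1 averaged 105 ± 12.4 FPKM in deletion cells (SD, n = 4) and 157 ± 12.8 FPKM in wild-type cells (SD, n = 3). Genes that build ribosomes had higher estimates in deletion cells and genes of stress, reserve carbohydrates, 2-carbon metabolism, respiration, peroxisomes and autophagy had lower ones. No member of those groups passed with all libraries counted equally. The number that passed rose when deletion replicate 1 or wild-type replicate 3, singled out after the data were seen, was left out. Without wild-type replicate 3, 76.9% of ribosome biogenesis genes passed as higher (8.66% of all genes). Only 9.09% of respiratory chain genes passed as lower in that fit (6.72% of all genes). Leaving out any other ethanol library gave 1 or 2 calls over all genes.

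The letters upstream of a few genes carry sequence motifs known from the regulation of these groups, and they are shown here so that the values can be read against them. MAG1 is divergently transcribed from DDI1, a ubiquitin-related protease gene, and the pair share an intergenic region of 282 bases (chrV:456037-456318, R64). The middle 122 bases (chrV:456117-456238) are given on the minus strand, which is the coding strand of MAG1. Capitals mark GGTGGCGA, an 8-letter word close to the PACE element of proteasome genes, which occurs here in 2 copies.
MAG1-DDI1: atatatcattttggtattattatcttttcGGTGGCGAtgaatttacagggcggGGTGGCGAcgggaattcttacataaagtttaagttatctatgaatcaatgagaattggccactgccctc
The PACE element itself, GGTGGCAAA, is capitalised in a 60-base stretch upstream of PRE1 (chrV:177685-177744, plus strand), which encodes a subunit of the proteasome core.
PRE1: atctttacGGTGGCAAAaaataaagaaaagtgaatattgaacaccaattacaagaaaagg
Ribosome assembly genes are known for a pair of words, PAC (GCGATGAG) and RRPE (AAAAATTT). Both are capitalised below, where present and on either strand, for the ribosome assembly genes DRS1 (chrXII:131579-131638, plus strand) and RCL1 (chrXV:307788-307847, plus strand). The same marks are used for 3 tRNA methyltransferase genes, GCD10 (chrXIV:510343-510422, minus strand), GCD14 (chrX:186780-186839, minus strand) and TRM1 (chrIV:693312-693341, minus strand).
DRS1: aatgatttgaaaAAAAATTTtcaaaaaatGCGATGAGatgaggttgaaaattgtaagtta
RCL1: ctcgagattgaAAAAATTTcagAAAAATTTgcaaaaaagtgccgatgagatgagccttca
GCD10: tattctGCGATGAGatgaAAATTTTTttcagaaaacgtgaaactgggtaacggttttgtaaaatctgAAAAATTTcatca
GCD14: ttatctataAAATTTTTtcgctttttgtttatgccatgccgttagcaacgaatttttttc
TRM1: ttcatcgcattcaatgCTCATCGCaaagtt
Stress genes are known for the STRE word, AGGGG, bound by the activators Msn2 and Msn4. It is capitalised on either strand for the small heat shock gene HSP12 (chrVI:107016-107095, plus strand) and the trehalose synthase subunit gene TSL1 (chrXIII:70384-70473, plus strand).
HSP12: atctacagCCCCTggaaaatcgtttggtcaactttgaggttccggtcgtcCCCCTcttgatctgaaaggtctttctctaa
TSL1: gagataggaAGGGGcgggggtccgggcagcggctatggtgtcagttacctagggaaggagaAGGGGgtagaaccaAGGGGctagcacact

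These words were counted on both strands in the 250 bases before the start codon of 5730 coding genes tested, from the RefSeq R64 sequence. PAC stood in 4.01% of all these windows and in 49.7% of those of 169 ribosome biogenesis genes. RRPE stood in 13.9% of all windows and in 81.7% of those of ribosome biogenesis genes. PACE was found in 1.17% of all windows and in 75.7% of those of 37 proteasome genes. STRE was found in 19.1% of all windows, in 55.3% of those of 47 general stress genes and in 45.5% of those of 22 reserve carbohydrate genes. GGTGGCGA was found in 0.558% of windows, and among all genes only MAG1 and DDI1 had 2 copies. A word is a match of letters and no evidence of binding in these cells.

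The libraries carried the marks of their labels. FPT1 (YKR011C, chromosome XI, 461635 to 462696, minus strand) stood at 0.303, 0, 0 and 0.412 FPKM in deletion libraries 1 to 4, against 136, 150 and 158 FPKM in wild-type libraries 1 to 3. LEU2, URA3 and MET17 (the gene of met15) were listed at 0 in all 14 libraries. HIS3, a partial deletion in this background, read 51.0 to 77.4 FPKM in ethanol, so its level gave no mark of the deletion. The MATa pheromone gene MFA2 read 460 to 1060 FPKM and the alpha pheromone gene MF(ALPHA)1 at most 5.49 FPKM. Other markers lay closer together in ethanol, with the MATa gene STE6 at 57.7 to 74.0 FPKM. The alpha genes STE3 and SAG1 read 8.58 to 12.4 FPKM and 22.2 to 27.9 FPKM, and MF(ALPHA)2 at most 1.41 FPKM. Read depth is not known from FPKM, so no counting interval can be given.

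The 7 libraries did not sort by genotype. Distance was taken as the mean absolute difference of log2(FPKM + 1) over all genes tested. It averaged 0.29 over the 12 pairs of a deletion with a wild-type library, 0.252 over the 6 pairs of deletion libraries and 0.275 over the 3 pairs of wild-type libraries. The closest of all 21 pairs was deletion replicate 1 with wild-type replicate 3, at 0.173. Deletion replicates 2 and 4, which are different strains, lay 0.187 apart. The distance of replicate 4 (NKI5620) to the other deletion libraries (NKI5633) averaged 0.26, and that among those 3 averaged 0.244. Deletion replicate 4 was the highest or lowest of the 7 libraries for 44.4% of genes and wild-type replicate 2 for 45.5%, while deletion replicates 1 and 3 and wild-type replicate 3 were so for 15.6%, 14.7% and 17.5%.

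**Figure D1:**
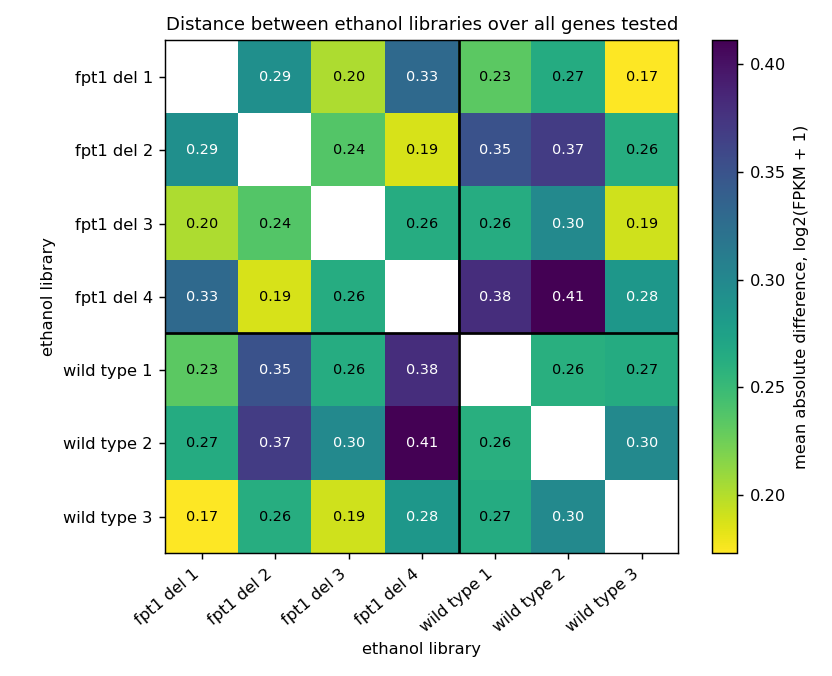
Mean absolute difference of log2(FPKM + 1) between each pair of the 7 ethanol libraries over all genes tested, with deletion (del) libraries before wild-type libraries on both axes and black lines between the genotypes. The palest cell, 0.17, joins deletion replicate 1 with wild-type replicate 3, and the darkest, 0.41, joins deletion replicate 4 with wild-type replicate 2.

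MAG1 (YER142C, chromosome V, 455146 to 456036, minus strand) encodes the 3-methyladenine DNA glycosylase, which removes alkylated bases and starts base excision repair. It stood at 120, 89.8, 107 and 102 FPKM in deletion cells, against 170, 157 and 145 FPKM in wild-type cells. All 4 deletion libraries lay below all 3 wild-type libraries. MAG1 fell by 0.59 ± 0.09 on the log2(FPKM + 1) scale (SE, limma with Benjamini-Hochberg adjustment, adjusted p = 0.042). This call is near the threshold. It was lost on leaving out deletion replicate 2, 3 or 4 or wild-type replicate 1 or 2, with log2 differences of -0.66 to -0.52 over the 7 fits that leave out 1 library. In glucose MAG1 stood at 41.8, 41.7, 39.8 and 44.8 FPKM in deletion cells and at 38.2, 40.7 and 42.7 FPKM in wild-type cells, so the genotypes overlapped there. Its difference in ethanol minus that in glucose was -0.64 ± 0.12, which did not pass over all genes (adjusted p = 0.13).

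DDI1 (YER143W, chromosome V, 456319 to 457605, plus strand) stands on the other side of the shared region with the 2 GGTGGCGA copies. It read 127, 107, 125 and 101 FPKM in deletion cells, against 140, 144 and 125 FPKM in wild-type cells. Deletion replicate 1 lay just above wild-type replicate 3, and the log2 difference of -0.25 ± 0.09 did not pass (adjusted p = 0.15). Of 36 genes of alkylation repair and the damage response, MAG1 was the 1 called, and 29 had estimates below 0 with a median log2 difference of -0.12. Over all genes the share called was 0.0319%, 57.5% had estimates below 0 and 42.5% above, and the median was -0.04.

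The proteasome degrades ubiquitin-tagged proteins, and its genes share the PACE word and the activator Rpn4. Of its 37 genes 33 had estimates below 0, with a median log2 difference of -0.12, and none passed. PRE1 stood at 937, 875, 827 and 788 FPKM in deletion cells, against 989, 1033 and 960 FPKM in wild-type cells. RPN2, a scaffold subunit of the regulatory particle named after its values were seen, stood at 216, 191, 207 and 198 FPKM in deletion cells and at 230, 224 and 224 FPKM in wild-type cells. For 8 of the 37 genes (21.6%) all deletion libraries lay below all wild-type libraries, against 4.12% of all genes tested, and for none did they all lie above. The differences were small, at -0.22 for PRE1 (adjusted p = 0.11) and -0.15 for RPN2 (adjusted p = 0.13). RPN4 itself, also named after its values were seen, overlapped between genotypes at 197, 158, 172 and 144 FPKM in deletion cells and 156, 193 and 181 FPKM in wild-type cells. Within the list, the 28 genes with PACE and the 9 without it both had a median of -0.12. Genes with PACE outside the proteasome list were 39, of which 31 (79.5%) had estimates below 0, with a median of -0.08. Over all coding genes 58.8% had estimates below 0, with a median of -0.04.

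MIC19 (chromosome VI, 166746 to 167258, minus strand) encodes a subunit of MICOS, the complex that shapes the folds of the inner mitochondrial membrane. It stood at 455, 463, 456 and 454 FPKM in deletion cells, against 714, 697 and 599 FPKM in wild-type cells. The deletion libraries were nearly level and all lay below the wild-type libraries. The log2 difference of -0.55 ± 0.09 narrowly missed the threshold (adjusted p = 0.067). MIC10, which bends the membrane at the base of these folds, stood at 1031, 968, 975 and 1165 FPKM in deletion cells and at 1430, 1282 and 1085 FPKM in wild-type cells. MIC60, the subunit that anchors the complex, stood at 134, 98.1, 125 and 114 FPKM in deletion cells and at 122, 149 and 134 FPKM in wild-type cells. Both overlapped between genotypes, with log2 differences of -0.29 and -0.20, and both were named after their values were seen. The 44 genes of MICOS, mitochondrial import and the membrane tether ERMES had a median of -0.09.

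**Figure D2:**
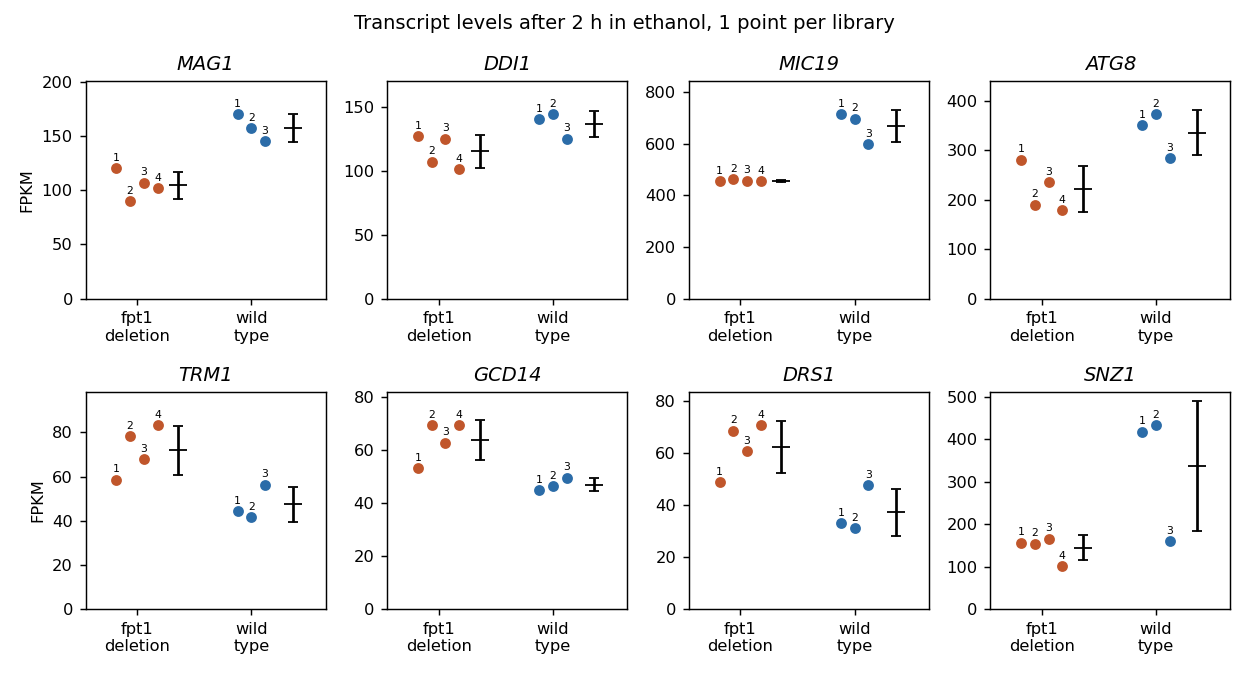
FPKM of 8 genes in each ethanol library, with points numbered by replicate, deletion left of wild type, and a black bar for the mean ± SD (n = 4 deletion and 3 wild-type libraries). The genotypes do not overlap for MAG1, MIC19, ATG8, TRM1, GCD14 and DRS1, they overlap slightly for DDI1, and for SNZ1 wild-type replicate 3 lies among the deletion libraries.

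Over all 6267 genes tested, limma called 2 genes, both lower, which is 0.0319%. An unadjusted p under 0.05 was found for 698 genes with higher (11.1%) and 812 with lower estimates (13.0%). Every deletion value exceeded every wild-type value in 203 genes (3.24%), and the reverse held in 258 (4.12%). Besides FPT1 and MAG1, 3 genes had an adjusted p under 0.1, and the next 280 shared adjusted p-values from 0.1 to 0.11. The labels call the replicates biological without saying whether each had its own culture. The p-values therefore speak only for the spread among libraries of the same group, which may be technical. That spread was estimated from all 14 libraries, those in glucose included. With the ethanol libraries alone MAG1 had an adjusted p of 0.36 by limma. In bulk libraries a gene's lower level can also mean fewer cells that express it, and these cannot be told apart.

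Among the genes next in order of p, 2 short reading frames without a known function stood out by size. YOL014W stood at 41.3, 79.1, 55.6 and 53.9 FPKM in deletion cells, against 25.1, 27.0 and 34.8 FPKM in wild-type cells, a log2 difference of 0.94 ± 0.16 (adjusted p = 0.08). YDL022C-A stood at 2.04, 2.05, 0 and 3.82 FPKM in deletion cells, against 16.5, 15.1 and 9.08 FPKM in wild-type cells, a log2 difference of -2.45 ± 0.42 (adjusted p = 0.08). YDL022C-A (chromosome IV, 409808 to 410056, minus strand) overlaps the start of DIA3, an acid phosphatase-like gene on the same strand, so their shares are uncertain. DIA3, named for this overlap and with its values seen, stood at 9.72, 6.16, 7.13 and 5.16 FPKM in deletion cells, against 13.6, 15.2 and 10.3 FPKM in wild-type cells. The genotypes did not overlap in any of these 3 genes.

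A further 4 genes near the front of this order had an adjusted p of 0.11. RMI1, a partner of the Sgs1 helicase in resolving DNA crossovers, stood at 111, 112, 120 and 90.3 FPKM in deletion cells, against 184, 175 and 129 FPKM in wild-type cells (log2 difference -0.58). EST3, a telomerase subunit, stood at 104, 109, 102 and 104 FPKM in deletion cells, against 72.7, 82.4 and 76.5 FPKM in wild-type cells (0.44). NCE103, the carbonic anhydrase, stood at 1172, 958, 1010 and 731 FPKM in deletion cells, against 1508, 1741 and 1190 FPKM in wild-type cells (-0.61). TGL2, a mitochondrial lipase, stood at 73.6, 61.9, 70.3 and 58.8 FPKM in deletion cells, against 97.5, 93.1 and 87.3 FPKM in wild-type cells (-0.48). None of these 4 genes overlapped between the genotypes.

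Ribosome assembly genes made up the group with the highest median. Of 169 genes 167 had estimates above 0 (42.5% of all genes did), with a median log2 difference of 0.44, and none passed with all libraries in the fit. DRS1, an RNA helicase of the large subunit, stood at 48.7, 68.5, 60.7 and 70.7 FPKM in deletion cells, against 33.0, 31.2 and 47.6 FPKM in wild-type cells (log2 difference 0.73 ± 0.14, adjusted p = 0.11). RCL1, which cleaves the precursor of the small subunit RNA, stood at 75.9, 107, 90.4 and 121 FPKM in deletion cells, against 54.1, 56.2 and 73.6 FPKM in wild-type cells (0.67 ± 0.14, adjusted p = 0.11). DBP2, a further RNA helicase and the gene of this list with the biggest difference, stood at 92.9, 226, 128 and 235 FPKM in deletion cells, against 53.7, 50.9 and 106 FPKM in wild-type cells (1.24 ± 0.30, adjusted p = 0.11). Deletion replicates 2 and 4 were high and wild-type replicates 1 and 2 low in all 3 genes. In DBP2 wild-type replicate 3 reached above deletion replicate 1, and this was so for 159 of the 169 genes. The groups were apart in 7 of them (4.14%, against 3.24% of all genes).

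Division of the ribosome assembly genes by motif moved their median little. The 84 genes with PAC had a median of 0.47 and all 84 had estimates above 0, while the 85 without it had a median of 0.41 and 83 above 0. Genes with PAC outside this list numbered 146, and 74.7% of them had estimates above 0, with a median of 0.15, against 41.2% of all 5730 coding genes. TOD6, which encodes a repressor that binds PAC, was itself higher in estimate. It stood at 13.9, 20.8, 17.5 and 24.1 FPKM in deletion cells, against 7.58, 8.84 and 13.9 FPKM in wild-type cells (log2 difference 0.87 ± 0.18, adjusted p = 0.11 by limma). The genotypes were not apart, as deletion replicate 1 and wild-type replicate 3 both read 13.9 FPKM.

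The 137 genes of cytosolic ribosomal proteins were all higher in estimate, at a median of 0.37, but no gene passed and no gene had groups apart. RPS4A stood at 696, 1037, 815 and 1094 FPKM in deletion cells, against 606, 466 and 712 FPKM in wild-type cells (log2 difference 0.61, adjusted p = 0.11). RPL22B stood at 368, 740, 428 and 776 FPKM in deletion cells, against 187, 214 and 495 FPKM in wild-type cells (1.02, adjusted p = 0.11). Both have a close copy elsewhere in the genome, so their shares of reads are uncertain. Deletion replicate 1 lay below wild-type replicate 3 in 133 of the 137 genes.

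RNA polymerase I makes the large ribosomal RNAs. Its 16 genes had a median of 0.22, and 13 were above 0. RPA135, its second-largest subunit, stood at 54.7, 84.9, 71.4 and 96.5 FPKM in deletion cells, against 33.7, 34.2 and 61.0 FPKM in wild-type cells (log2 difference 0.85, adjusted p = 0.11). The 7 subunits that RNA polymerases I and III share also had a median of 0.22, all above 0. None of these 23 genes was called or had groups apart.

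The machinery of RNA polymerase III, at whose genes Fpt1 is found, had a smaller median, with members on both sides. Of 21 genes 12 had estimates above 0 and 9 below, with a median of 0.07, and none was called. An unadjusted p under 0.05 was found for 8 higher genes (38.1%, against 11.1% of all genes) and 3 lower ones (14.3%, against 13.0%). RPC82, a subunit of the initiation module, was the 1 gene with groups apart (4.76%, close to the 3.24% of all genes). It stood at 33.0, 38.7, 34.0 and 38.2 FPKM in deletion cells, against 24.2, 26.7 and 32.2 FPKM in wild-type cells (log2 difference 0.37, adjusted p = 0.11). RPO31, the largest subunit, stood at 53.8, 57.1, 53.0 and 59.1 FPKM in deletion cells and at 36.8, 47.0 and 56.1 FPKM in wild-type cells. MAF1, the repressor that holds RNA polymerase III back in poor conditions, stood at 412, 346, 370 and 264 FPKM in deletion cells and at 408, 465 and 373 FPKM in wild-type cells. BRF1, a subunit of the initiation factor TFIIIB, stood at 60.9, 52.0, 57.3 and 47.4 FPKM in deletion cells and at 61.3, 64.9 and 58.8 FPKM in wild-type cells. All 3 overlapped between genotypes.

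The genes that chemically modify tRNAs held the highest share of members with groups apart on the higher side, 8 of 53 (15.1%, against 3.24% of all genes), and none on the lower side. Their median was 0.19, with 43 estimates above 0. TRM1, which methylates guanosine in most tRNAs, stood at 58.5, 78.1, 67.7 and 83.3 FPKM in deletion cells, against 44.4, 41.7 and 56.4 FPKM in wild-type cells (log2 difference 0.59 ± 0.11, adjusted p = 0.11). GCD14, the catalytic subunit of the adenosine methyltransferase that protects the initiator tRNA, stood at 53.3, 69.5, 62.8 and 69.3 FPKM in deletion cells, against 44.8, 46.4 and 49.6 FPKM in wild-type cells (0.43 ± 0.08, adjusted p = 0.11). GCD10, the other subunit of that enzyme, stood at 44.2, 69.3, 55.5 and 77.0 FPKM in deletion cells, against 38.4, 32.8 and 45.5 FPKM in wild-type cells (0.63 ± 0.15, adjusted p = 0.11). Groups were apart for TRM1 and GCD14, while wild-type replicate 3 reached above deletion replicate 1 for GCD10. The other 6 with groups apart were NCL1, TRM5, DEG1, DUS1, TAD3 and IKI1, at log2 differences of 0.15 to 0.38, and they were named after their values were seen. PAC stood in 17.0% of the windows of this list, against 4.01% of all.

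Other genes of tRNA use and translation had no call. The 22 genes of tRNA splicing, end processing and export were divided, with 13 estimates above 0 and 9 below, a median of 0.06 and 1 gene apart on each side. The 21 cytosolic tRNA synthetase genes had a median of 0.16 with 19 above 0. MES1, the methionyl-tRNA synthetase, stood at 123, 168, 140 and 177 FPKM in deletion cells and at 106, 100 and 138 FPKM in wild-type cells. The 36 translation factor genes had a median of 0.18 with 32 above 0. TIF5, an initiation factor that triggers GTP hydrolysis at the start codon, stood at 447, 553, 496 and 535 FPKM in deletion cells, against 423, 357 and 440 FPKM in wild-type cells. YEF3, an elongation factor of fungi, stood at 1393, 1783, 1550 and 1750 FPKM in deletion cells and at 1158, 1064 and 1500 FPKM in wild-type cells. TIF5 was apart between genotypes, at 0.32 (adjusted p = 0.11), and MES1 and YEF3 overlapped.

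**Figure D3:**
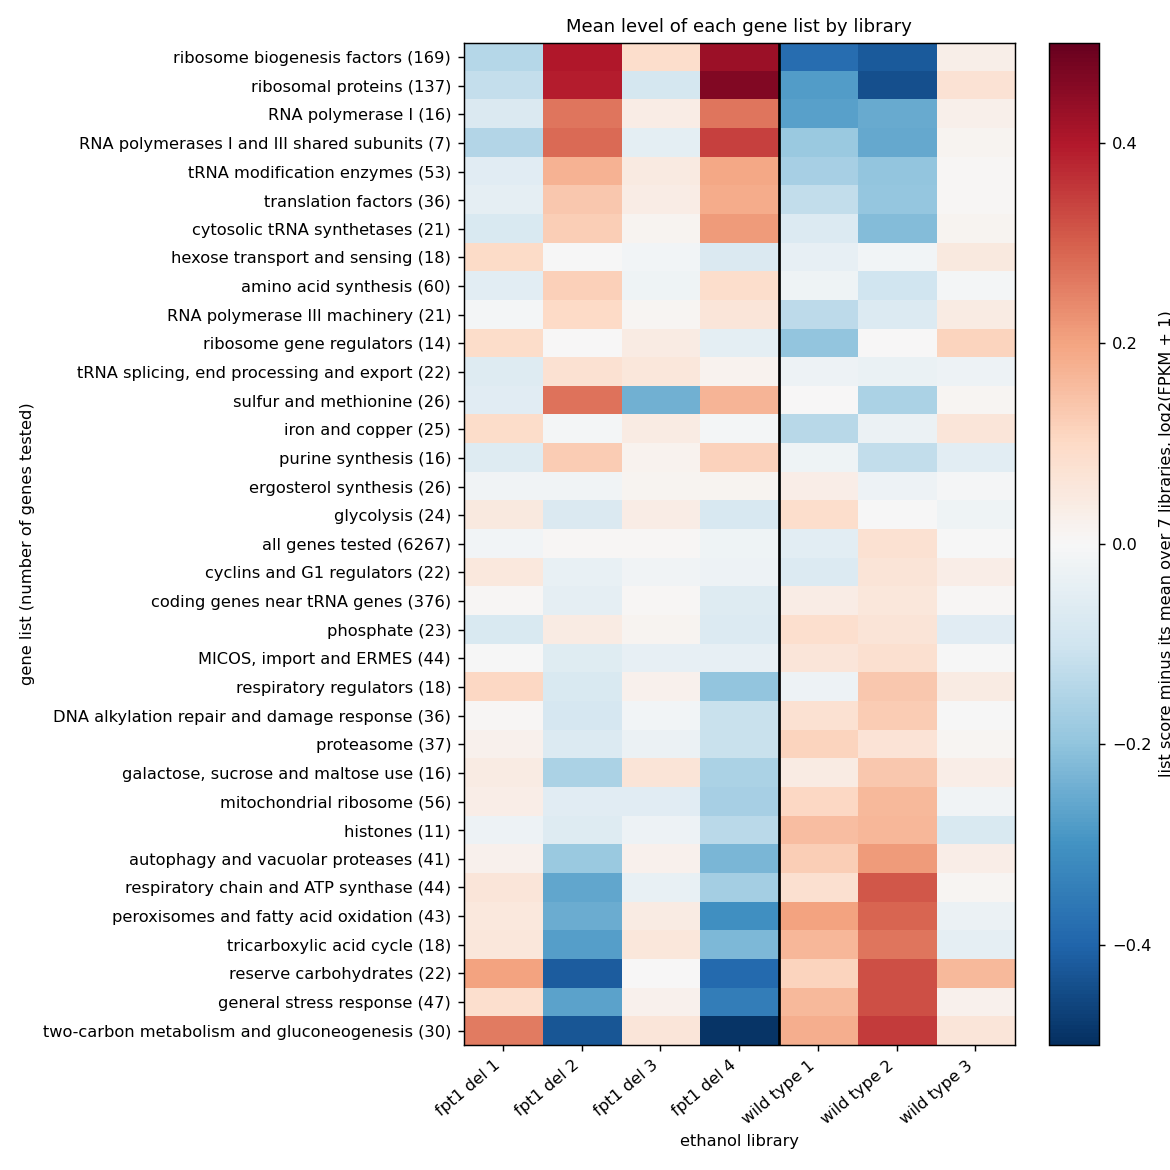
Mean log2(FPKM + 1) of the genes of each list in each ethanol library, shown as the difference from the mean of the 7 libraries (red above, blue below), with deletion (del) libraries left of wild-type libraries. The list of genes beside FPT1 is not shown, and all genes tested have a row of their own. Deletion replicates 2 and 4 and wild-type replicates 1 and 2 carry the strong colours, while deletion replicates 1 and 3 and wild-type replicate 3 stay pale in most lists.

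On the lower side stood the genes that ethanol growth and stress call for. General stress genes had a median of -0.34, with 42 of 47 estimates below 0 and no call. HSP12 stood at 984, 880, 1585 and 705 FPKM in deletion cells and at 3514, 3367 and 1111 FPKM in wild-type cells. Wild-type replicate 3 lay within the deletion range, and the log2 difference of -1.25 ± 0.47 did not pass (adjusted p = 0.15). DDR2, a further stress gene whose function is not known, stood at 279, 170, 178 and 166 FPKM in deletion cells and at 314, 462 and 271 FPKM in wild-type cells, where deletion replicate 1 reached into the wild-type range.

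Reserve carbohydrate genes make trehalose and glycogen, and 21 of 22 had estimates below 0, with a median of -0.33. TSL1 stood at 96.4, 42.7, 71.1 and 50.5 FPKM in deletion cells and at 89.4, 114 and 93.3 FPKM in wild-type cells (log2 difference -0.66, adjusted p = 0.11). PIG2, a putative targeting subunit of the phosphatase that activates glycogen synthesis, stood at 46.8, 31.3, 44.5 and 26.7 FPKM in deletion cells and at 55.8, 64.5 and 45.5 FPKM in wild-type cells. In both genes deletion replicate 1 lay within the wild-type range and deletion replicates 2 and 4 far below it. Of the stress and reserve genes, the 36 with STRE had a median of -0.39 and the 33 without it a median of -0.24. Estimates were below 0 for 35 of the former and 28 of the latter. Outside these lists 1056 genes with STRE had a median of -0.1, and 71.6% of them had estimates below 0. Over all coding genes the median was -0.04, with 58.8% below 0.

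Genes of 2-carbon metabolism and gluconeogenesis, through which ethanol carbon enters the cell's pools, had a median of -0.35, with 24 of 30 below 0 and no member with groups apart. PYC1, a pyruvate carboxylase, stood at 374, 292, 408 and 260 FPKM in deletion cells and at 561, 651 and 361 FPKM in wild-type cells (log2 difference -0.63, adjusted p = 0.11). CYB2, the mitochondrial lactate dehydrogenase, stood at 243, 95.7, 197 and 90.1 FPKM in deletion cells and at 244, 379 and 190 FPKM in wild-type cells (-0.86, adjusted p = 0.14). ADH2, the dehydrogenase that oxidises ethanol, and the lactate carrier gene JEN1 were named after their values were seen, at -0.72 and -0.81. ADH2 stood at 677, 271, 493 and 287 FPKM in deletion cells and at 694, 803 and 519 FPKM in wild-type cells. Deletion replicate 1 was level with wild type and replicates 2 and 4 were lowest in all 3 genes given by library, except that PYC1 was level with wild-type replicate 3 alone.

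Mitochondrial genes differed by less. The tricarboxylic acid cycle had a median of -0.26 with 16 of 18 below 0, and the respiratory chain with ATP synthase a median of -0.22 with 43 of 44 below 0. LPD1, the dihydrolipoamide dehydrogenase, was apart at 289, 248, 296 and 269 FPKM in deletion cells, against 334, 338 and 303 FPKM in wild-type cells (log2 difference -0.24, adjusted p = 0.11). CIT3, a mitochondrial citrate synthase, overlapped at 138, 91.5, 127 and 66.3 FPKM in deletion cells and 211, 202 and 90.7 FPKM in wild-type cells. NDE2, an external NADH dehydrogenase, also overlapped, at a log2 difference of -0.98. The 56 mitochondrial ribosomal genes had a median of -0.15 with 52 below 0, and 5 had groups apart on the lower side (8.93%, against 4.12% of all genes) with 1 on the higher side.

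Peroxisomes house fatty acid oxidation, and 38 of 43 of their genes had estimates below 0, with a median of -0.22. PEX19, the receptor for peroxisomal membrane proteins, was apart at 149, 119, 134 and 121 FPKM in deletion cells, against 172, 200 and 156 FPKM in wild-type cells (log2 difference -0.42, adjusted p = 0.11). POX1, the acyl-CoA oxidase, overlapped at 23.5, 12.7, 26.0 and 14 FPKM in deletion cells and 49.0, 48.7 and 20.7 FPKM in wild-type cells. Groups were apart on the lower side in 5 of the 43 genes (11.6%, against 4.12% of all genes).

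Autophagy and vacuolar proteases formed the 1 list of 35 whose mean level was apart between genotypes, at 6.28, 6.07, 6.28 and 6.03 in deletion libraries and 6.38, 6.47 and 6.29 in wild-type libraries on the log2(FPKM + 1) scale. Deletion replicates 1 and 3 nearly touched wild-type replicate 3. Of its 41 genes 39 had estimates below 0, with a median of -0.21. ATG8, the ubiquitin-like protein of the autophagosome membrane, stood at 281, 190, 236 and 179 FPKM in deletion cells, against 351, 373 and 284 FPKM in wild-type cells (log2 difference -0.61 ± 0.14, adjusted p = 0.11). ATG14, a subunit of the lipid kinase complex that starts the autophagosome, was named after its values were seen and stood at 45, 34.6, 40.9 and 32.5 FPKM in deletion cells, against 47.6, 60.8 and 51.7 FPKM in wild-type cells (-0.48). ATG36, the receptor for removal of peroxisomes, is not on this list and stood at 49.2, 42.2, 50.8 and 42.2 FPKM in deletion cells, against 69.6, 71.3 and 55.0 FPKM in wild-type cells (-0.49, adjusted p = 0.11). All 3 genes given were apart between genotypes. Within the list, 3 of 41 genes were apart, all on the lower side (7.32%, against 4.12% of all genes): ATG8, ATG14 and ATG17, a scaffold of autophagy initiation also named after its values were seen.

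Several groups had medians from -0.04 to 0.10, against -0.04 for all genes. They were 0.10 for hexose transport and sensing, 0.07 for amino acid synthesis, 0.04 for iron and copper, 0.04 for sulfur and methionine, -0.01 for ergosterol synthesis, -0.02 for glycolysis and -0.04 for cyclins. The sign of the ergosterol median turned with quantile normalization (0.03) and with median scaling (0.01). Leaving out 1 library gave medians on both sides of 0 for ergosterol (-0.02 to 0.02) and glycolysis (-0.06 to 0.01). The same held for cyclins (-0.08 to 0.01) and for sulfur and methionine (-0.02 to 0.19). FET4, a low-affinity iron transporter, was apart within its list at 196, 181, 186 and 176 FPKM in deletion cells, against 107, 136 and 167 FPKM in wild-type cells (log2 difference 0.45, adjusted p = 0.11). LYS4, the homoaconitase of lysine synthesis, was apart at 49.7, 55.2, 48.9 and 53.3 FPKM in deletion cells, against 38.6, 36.9 and 44.5 FPKM in wild-type cells (0.37, adjusted p = 0.11). YCK2, a membrane casein kinase of glucose sensing, was nearly level within each genotype at 152, 154, 153 and 154 FPKM in deletion cells, against 133, 135 and 140 FPKM in wild-type cells (0.17, adjusted p = 0.11).

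Genes close to tRNA genes can be touched by the transcription complexes beside them. The 376 tested coding genes within 1000 bases of 1 of 275 nuclear tRNA genes had a median of -0.04, the same as all genes, and none was called. Their groups were apart on the lower side in 27 genes (7.18%, against 4.12% of all genes) and on the higher side in 7 (1.86%, against 3.24%). RPA135 and POX1, which overlapped between genotypes, belong to this list, as do MIC19, TGL2, EST3, NCE103, LPD1, PRE1, YDL022C-A and DIA3, described above. CDC26, a subunit of the anaphase-promoting complex, does too and stood at 18.1, 28.2, 17.5 and 20.2 FPKM in deletion cells, against 37.0, 35.7 and 34.7 FPKM in wild-type cells (log2 difference -0.77, adjusted p = 0.11). The 5 genes beside FPT1 on chromosome XI were not called, at log2 differences of -0.50 for FOX2, -0.18 for YPT52, -0.10 for TOF2, -0.02 for PRY2 and 0.14 for YKR012C. FOX2, a peroxisomal enzyme of fatty acid oxidation, stood at 19.0, 13.9, 20.1 and 15.0 FPKM in deletion cells and at 26.5, 29.6 and 18.0 FPKM in wild-type cells.

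How many genes were called turned on 2 libraries. Without wild-type replicate 3, limma called 964 genes (15.4%), 543 higher (8.66%) and 421 lower (6.72%). Without deletion replicate 1 it called 912 genes (14.6%), 488 higher (7.79%) and 424 lower (6.77%). Leaving out any of the other 5 libraries gave 1 or 2. Both fits shared 552 calls, 363 higher and 189 lower, which are 57.3% of the calls without wild-type replicate 3 and 60.5% of those without deletion replicate 1. The fits have the other 5 ethanol libraries and all glucose libraries in common, so shared calls are not independent. In 285 of the 363 shared higher calls deletion replicate 1 lay below wild-type replicate 3. The 2 libraries were singled out after the data were seen, and they are the pair with the shortest distance across genotypes. No label sets them apart from the others, and whether they differ from their groups for a reason other than genotype was not tested.

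**Figure D4:**
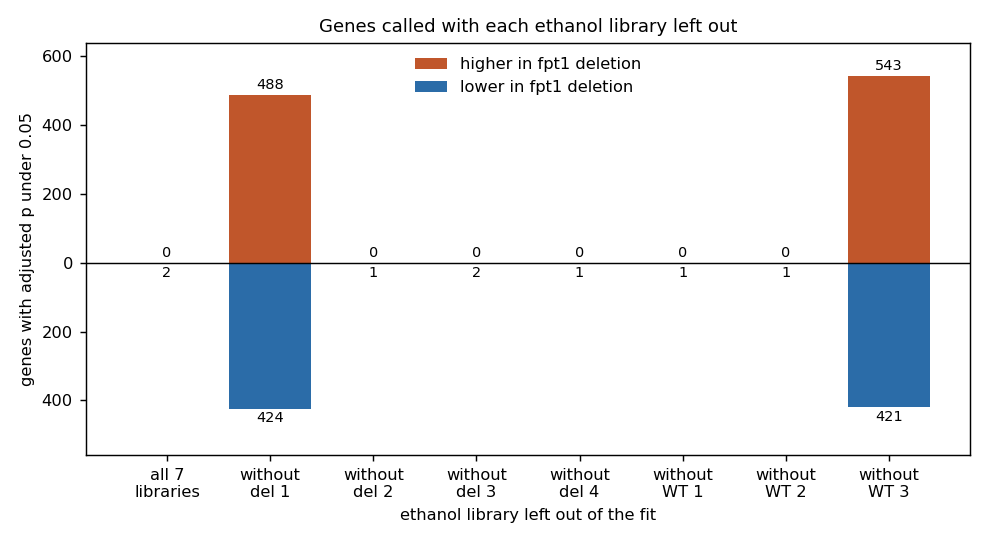
Number of genes with an adjusted p under 0.05 in limma fits with all 7 ethanol libraries and with each library left out, with genes higher in deletion (del) cells above 0 and genes lower below 0. The bars reach 488 and 424 without deletion replicate 1 and 543 and 421 without wild-type replicate 3, and the other fits call 1 or 2 genes.

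Shares of called members differed between the groups in these fits. Over all genes, 8.66% were called higher without wild-type replicate 3 and 7.79% without deletion replicate 1, and 6.72% and 6.77% were called lower. Without wild-type replicate 3, 130 of 169 ribosome biogenesis genes (76.9%) were called higher, and without deletion replicate 1, 141 were (83.4%) and 1 was called lower. Both fits shared 121 of the higher calls. DRS1 had log2 differences of 0.92 and 0.84 (adjusted p = 0.0039 and 0.0083), given for the fit without wild-type replicate 3 and then without deletion replicate 1. In the same order of fits, ribosomal proteins were called higher in 71 (51.8%) and 59 (43.1%) of 137 genes, with 49 shared, and tRNA modification enzymes in 21 (39.6%) and 23 (43.4%) of 53, with 19 shared. RNA polymerase III genes were called higher in 5 (23.8%) and 7 (33.3%) of 21, with 3 shared, and lower in 0 and 1 (4.76%). On the lower side, 11 (23.4%) and 18 (38.3%) of 47 stress genes and 8 (26.7%) and 12 of 30 genes of 2-carbon metabolism were called. Among 43 peroxisome genes the counts were 15 (34.9%) and 12 (27.9%), with 8 shared. For 37 proteasome genes they were 8 (21.6%) and 7 (18.9%), with only 3 shared. For 41 autophagy genes they were 8 (19.5%) and 7 (17.1%), with 5 shared. Respiratory chain genes had fewer, with 4 (9.09%) and 6 (13.6%) of 44 called and 2 shared. Of 22 reserve carbohydrate genes, 2 (9.09%) were called without wild-type replicate 3, near the share of all genes, and 17 (77.3%) without deletion replicate 1. Both fits shared 2 of these calls. MIC19 was called in both fits, at -0.63 and -0.54 (adjusted p = 0.0051 and 0.0098).

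SNZ1, a gene of vitamin B6 synthesis induced when cells starve, was called in both of these fits and not with all libraries. It stood at 157, 155, 166 and 102 FPKM in deletion cells and at 418, 434 and 160 FPKM in wild-type cells. Wild-type replicate 3 lay among the deletion libraries, and the log2 difference of -1.11 ± 0.28 did not pass (adjusted p = 0.11). Without that library it was -1.58 (adjusted p = 0.00074), and without deletion replicate 1 it was -1.15 (adjusted p = 0.029). GLY1, the threonine aldolase, stood at 410, 428, 395 and 432 FPKM in deletion cells and 260, 278 and 390 FPKM in wild-type cells, and was called higher in both fits (adjusted p = 0.0013 and 0.031). IZH4, a membrane protein of zinc homeostasis, stood at 103, 127, 96.2 and 122 FPKM in deletion cells and at 52.3, 53.5 and 119 FPKM in wild-type cells. It was called without wild-type replicate 3 (adjusted p = 0.00023 by limma) and not without deletion replicate 1 (adjusted p = 0.059). SNZ1, GLY1 and IZH4 were named because they had some of the smallest p-values in the fit without wild-type replicate 3. Their low p-values in that fit therefore follow from this choice and add no support.

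In glucose, where other libraries of the same strains were measured, most groups did not share the direction seen in ethanol. In 23 of 35 lists the medians had opposite signs in the 2 media, and over all genes they were -0.04 in ethanol and 0.08 in glucose. Ribosome biogenesis had a median of 0.44 in ethanol and -0.02 in glucose, and ribosomal proteins 0.37 and -0.08. Stress genes had -0.34 and 0.16, reserve carbohydrates -0.33 and 0.22, the respiratory chain -0.22 and 0.20, and autophagy -0.21 and 0.17. The test of the difference between the media called no gene of 6267, with a lowest adjusted p of 0.079, and 1603 genes (25.6%) had an unadjusted p under 0.05. Without deletion ethanol replicate 1 it called 844 genes (13.5%) and without wild-type ethanol replicate 3 it called 654 (10.4%). Opposite signs were therefore not shown to differ for any gene with all libraries in the fit.

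**Figure D5:**
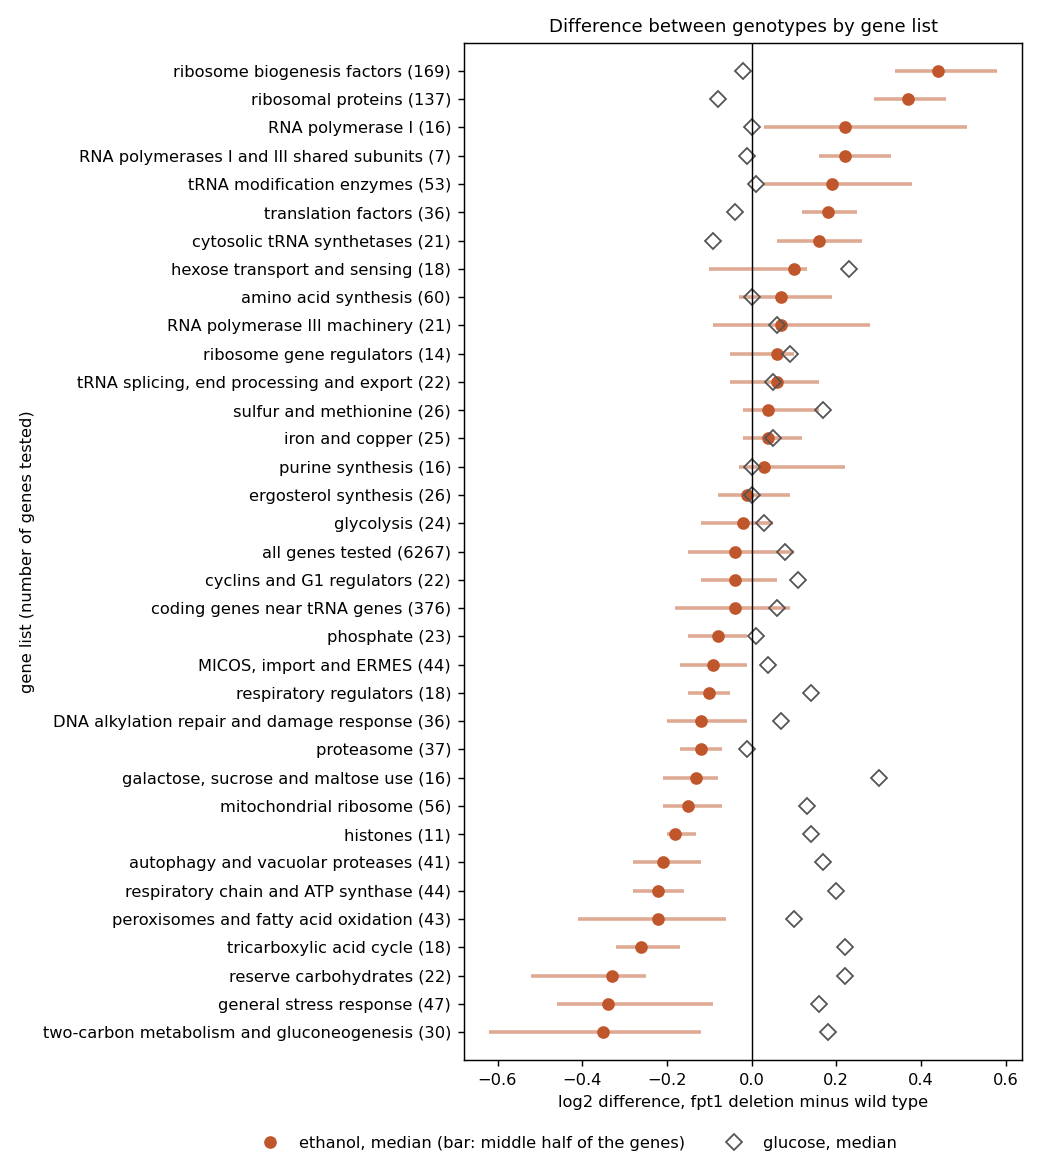
Median log2 difference, deletion minus wild type, of each gene list in ethanol (filled circle, with a bar for the interquartile range of its genes) and in glucose (open diamond), ordered by the ethanol median. The list of genes beside FPT1 is not shown, and all genes tested have a row of their own. Ethanol medians run from 0.44 for ribosome biogenesis to -0.35 for 2-carbon metabolism, and glucose medians lie on the other side of 0 for most lists at either end.

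Glucose levels put the sizes of these differences in context. TRM1 stood at 141, 141, 138 and 134 FPKM in deletion cells and 150, 154 and 153 FPKM in wild-type cells in glucose, above every ethanol value. NSR1, a nucleolar protein of small subunit assembly named after its values were seen, stood at 345, 611, 444 and 626 FPKM in deletion cells and 243, 210 and 378 FPKM in wild-type cells in ethanol, and at 1604 FPKM or more in deletion cells and 1600 FPKM or more in wild-type cells in glucose. ATG8 stood at 84.1, 92.1, 80.9 and 93.4 FPKM in deletion cells and 69.2, 55.8 and 69.0 FPKM in wild-type cells in glucose, below every ethanol value. In these 3 genes the mean of the deletion libraries in ethanol lay nearer to the glucose values than the mean of the wild-type libraries did. They are picked examples, and the share of all genes with this order was not counted. EST3 went the other way. Its means were 105 FPKM in deletion and 77.2 FPKM in wild-type cells in ethanol, against 53.2 and 46.3 FPKM in glucose.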

How the data were processed

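The authors' deposited FPKM table (14 libraries, 6664 genes) was used as it stands. STAR 2.7.1a and the build sacCer3 are listed, with no role, per the submitters' processing notes. Which tool made the FPKM values, with which annotation and strand setting and at what depth is not given in the sources used here. Genes were matched by systematic name to RefSeq R64 (5989 of 6664). A gene was tested where 3 or more of the 14 libraries reached 1 FPKM, which kept 6267 genes and left out 397. The scale was log2(FPKM + 1), which understates changes of low genes. limma 3.58.1 (R 4.3.3) fitted 1 mean per group over all 14 libraries, with empirical Bayes and a mean-variance trend. Contrasts were two-sided, with Benjamini-Hochberg adjustment over all genes tested and a threshold of 0.05. The script was tested on simulated data. Lists are described by counts and medians, with no test. ARG5,6 and ADE5,7 had no match and were left out. Genes were named by rule (always-named genes, called genes, the 10 smallest p and 8 widest non-overlapping differences per direction, 3 per list, and 5 per direction and left-out library) unless marked otherwise. The members, lists and tests were chosen with earlier results of these data known. The alternatives tried are given in the closing section.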

Additional observations from a re-analysis of the deposited data

Results flagged for a closer look

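Among 93 values checked for a library far from the others of its group, 2 stood out, and chance would single out about 1 in 20. DDR2 read 279 FPKM in deletion replicate 1, far above 170, 178 and 166 FPKM in the other deletion libraries. The mean level of the cyclins and G1 regulators was 6.11 in deletion replicate 1 on the log2(FPKM + 1) scale, above 6.02, 6.04 and 6.03 in the other deletion libraries.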

How the results depend on the processing

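FPT1 was called under all 18 alternatives, and MAG1 under 7 of them with the same direction in all 18. MAG1 lost its call with the ethanol samples alone (-0.59, adjusted p = 0.36 by limma), median scaling (-0.57, 0.091), no filter on low values (-0.59, 0.07), no trend (-0.59, 0.093) and quantile normalization (-0.52, 0.1), and leaving out 1 library gave -0.66 to -0.52. The count of called genes was 1, and that lower, with the ethanol samples alone, median scaling, no filter, no trend and quantile normalization, and 4, all lower, with pseudocount 5. Sample weights gave 308 calls, 236 higher and 72 lower. Leaving out 1 library gave 1 to 964 calls, 0 to 543 higher and 1 to 424 lower. The difference of responses called 1 gene with no filter, no trend or pseudocount 5, 1036 with sample weights, and 0 to 844 with 1 library left out. Genes whose groups do not overlap numbered 461, and 565 to 2308 with 1 library left out, where fewer libraries make separation easier. The cause of the other changes was not tested. With the replicate number as a block 1 gene was called, and MAG1 stood at -0.6 (adjusted p = 0.14). Deviations of same-numbered ethanol libraries correlated at 0.32, 0.21 and -0.09, and 2 of 3 wild-type libraries correlated best with their own number. So few values cannot decide whether the numbers pair the samples. Precision is limited by 4 deletion and 3 wild-type libraries and by unknown depth.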
